A study of Mus musculus with 2 samples.

Results

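Mouse gene names that end in os belong to transcripts annotated on the strand opposite to a named gene, here called antisense transcripts and sense genes. The rule took every row of the table whose name ends in os, with or without a digit from 1 to 4, and whose name without that ending is also a row. It left out chromosomes 10 and 17 and used names only, no measured value. It found 270 antisense transcripts among 48550 rows, named after 234 sense genes, of which 28 had 2 or more antisense transcripts. All 270 lay on the same chromosome as their sense gene and on the other strand.

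F121-6 is a line of embryonic stem (ES) cells from a female mouse embryo of a 129 and cas (castaneus) hybrid cross, so that each gene has an allele of either strain. The cells were grown with LIF, serum and a layer of mitomycin-C-inactivated mouse embryonic fibroblasts (MEFs), and total nuclear RNA was sequenced in 2 strand-specific libraries. There is 1 group and no untreated or mutant arm, so the comparison the design allows is 129 against cas within each library. Separate cultures are not mentioned in the labels. The p-values below therefore measure spread between these 2 libraries, which may be technical, and they describe 1 cell line. That spread is pooled largely over rows of like read level (89.41 total degrees of freedom in the fit) and owes little to the row itself. A row whose own ratios differ widely between the libraries can thus still be called. The labels also do not say which strain the feeder cells came from or which strain was the mother.

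Natural antisense transcripts are copied from the strand opposite to a gene. Many start from the same stretch of DNA as the gene and run the other way, as a bidirectional promoter, and others start inside the gene or beyond its end and run back across it. Some are known to act on the chromosome they are made from, as Tsix acts on Xist and Airn on Igf2r, while for most named os transcripts no function is established. In a hybrid cell each chromosome carries its own pair of antisense transcript and sense gene, so that the 129 share of reads can be set side by side for both rows.

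The libraries held 15300476 and 17006241 reads assigned to 129, and 13223268 and 14396524 assigned to cas. The 129 share is the percentage of a row's allele-assigned reads that came from 129. Log2 ratios are log2(129/cas) of reads scaled to CPM (reads relative to the scaled total of their column) plus 0.1, centred so that the typical row sits at 0. Rows with 20 or more allele reads in library 1 and as many in library 2 were tested, and a row was called where the adjusted p of limma was under 0.05. Of 10 markers of ES cells 9 were tested, 1 of them higher from 129 and 4 from cas. Their median log2 ratio was -0.08, with summed 129 shares of 53.5% and 54.0%. Of 24 markers of fibroblasts 19 were tested, 14 of them higher from 129 and 0 from cas, with a median log2 ratio of 1.95. Over all tested rows 21.8% were called in each direction.

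The annotated spans of the pairs fell into a few layouts. In 70 of the 270 pairs the starts, as the table gives them, lay within 1000 bp of each other. In 178 the spans overlapped with starts further apart, in 19 they did not overlap, and 3 antisense transcripts could not be matched to the annotation. By type, 234 were annotated as antisense RNA, 11 as lincRNA, 11 as processed transcript and 7 as protein coding. The sense promoters below are shown because they hold the starts of both transcripts in 4 pairs that the results turn on. Each runs from 250 bases before to 50 after the sense gene's start (RefSeq, GRCm38.p6), on the strand of the sense gene, 5′ to 3′. Capitals mark matches to the GC box (GGGCGG or CCGCCC) and the CCAAT box (CCAAT or ATTGG), searched on both strands. The TATA box (TATAAA or TTTATA) was searched as well and had no match in them. The Brip1 window is chr11:86201144-86201443 on the minus strand, with the start of Brip1os at base 62 by the table and at base 74 by the annotation. In it 1 ATTGG and 1 GGGCGG share bases. Distances between starts below use the starts of the table, and spans and overlaps those of the annotation. These starts agreed within 2 bp for 83.4% of annotated rows. By the table Ino80dos and Tbx3os1 start 22541 and 43363 bp from their genes, yet both count as overlapping by the annotation. The Plekhd1 window is chr12:80692351-80692650 on the plus strand, with the start of Plekhd1os at base 116. The Map2k3 window is chr11:60931804-60932103 on the plus strand, with the start of Map2k3os at base 64. The Ptgs2 window is chr1:150099781-150100080 on the plus strand, with the start of Ptgs2os at base 37 by the table and at base 183 by the annotation, 146 bp from it.
Brip1 promoter: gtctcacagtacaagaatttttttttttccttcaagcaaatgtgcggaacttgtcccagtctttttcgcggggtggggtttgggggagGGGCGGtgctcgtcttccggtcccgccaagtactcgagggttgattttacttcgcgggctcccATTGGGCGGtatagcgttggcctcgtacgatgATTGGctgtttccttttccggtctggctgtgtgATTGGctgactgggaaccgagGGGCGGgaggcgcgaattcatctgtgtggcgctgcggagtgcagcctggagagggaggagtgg
Plekhd1 promoter: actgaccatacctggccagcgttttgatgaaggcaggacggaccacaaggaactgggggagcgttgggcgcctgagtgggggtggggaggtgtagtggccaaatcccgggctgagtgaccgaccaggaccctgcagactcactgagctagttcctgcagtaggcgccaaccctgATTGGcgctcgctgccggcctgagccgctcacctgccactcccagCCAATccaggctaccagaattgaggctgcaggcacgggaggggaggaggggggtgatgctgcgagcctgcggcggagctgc
Map2k3 promoter: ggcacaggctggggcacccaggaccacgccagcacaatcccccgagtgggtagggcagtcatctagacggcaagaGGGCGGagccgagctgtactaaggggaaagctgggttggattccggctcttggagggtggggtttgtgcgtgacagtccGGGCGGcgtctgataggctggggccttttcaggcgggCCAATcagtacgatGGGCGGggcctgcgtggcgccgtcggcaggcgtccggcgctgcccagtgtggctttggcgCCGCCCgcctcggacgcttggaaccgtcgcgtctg
Ptgs2 promoter: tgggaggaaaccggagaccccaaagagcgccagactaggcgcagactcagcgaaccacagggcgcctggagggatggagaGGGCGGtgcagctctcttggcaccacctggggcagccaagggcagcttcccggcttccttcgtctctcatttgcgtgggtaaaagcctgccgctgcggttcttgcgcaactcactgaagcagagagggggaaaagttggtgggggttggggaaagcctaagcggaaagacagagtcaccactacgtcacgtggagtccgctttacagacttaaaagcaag

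Of the 24 tested pairs with starts this close, 19 had a sense promoter in the RefSeq table, and in 14 of these windows the antisense start lay inside. The 19 windows had a median GC content of 63.7%, against 52.7% over all 32851 windows of the same length, and a median of 24 CG dinucleotides, against 7. A GC box was found in 11 of the 19 and in 35.7% of all windows, a CCAAT box in 8 of the 19 and in 37.4% of all windows. The TATA box was found in 0 of the 19 and in 13.6% of all windows. The 19 belong to pairs with enough reads to test, whereas the 32851 windows were not selected by reads, so the contrast cannot be credited to close starts. These are matches of letters and no measure of a factor's binding.

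Whether an antisense transcript had any reads followed the overlap of its span with other rows. Of the 270, 140 had 0 allele reads in both libraries, 81 had some reads but too few to test, and 49 were tested. Of 123 antisense transcripts with every base of their annotated span under the span of another row, 123 (100.0%) had 0 reads. Of 104 with part of the span free, 11 (10.6%) had 0 reads and 35 were tested, and of 40 with the whole span free, 5 (12.5%) had 0 reads and 14 were tested. The same held over the table, where 9998 of 10120 rows with no free base (98.8%) had 0 reads. It also held on either strand. Of all rows wholly under an opposite-strand span 4689 of 4754 (98.6%) had 0 reads, and of those wholly under a same-strand span 4532 of 4578 (99.0%).

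This bears on what each value covers. The Sox2 gene, which ES cells are known to express, had 0 reads in both libraries, as had Xist, which lies under Tsix, and Kcnq1ot1, which lies inside Kcnq1. The ligand gene Tnfsf13 had 0 free bases and 0 reads, while Tnfsf13os, across it, had 439 free bases, and had 36 reads from 129 and 18 from cas in library 1, against 16 and 22 in library 2. If rows covered in part follow this pattern, the reads of an antisense transcript and of its sense gene came almost wholly from different stretches of DNA, those that no other row covers. For such rows this was not tested. Over 14954 tested rows, log reads correlated with log length at r = 0.49 (Pearson) for the free span and 0.47 for the whole span, which hardly separates the 2 lengths. A row at 0 here is no measure of silence, and where 0 reads could be a true count, counting error alone allows up to 3 reads in a library. Within a free stretch, reads of the 2 strands could not be told apart in the table, since the sources used here do not give the use of strand in the counting.

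**Figure D1:**
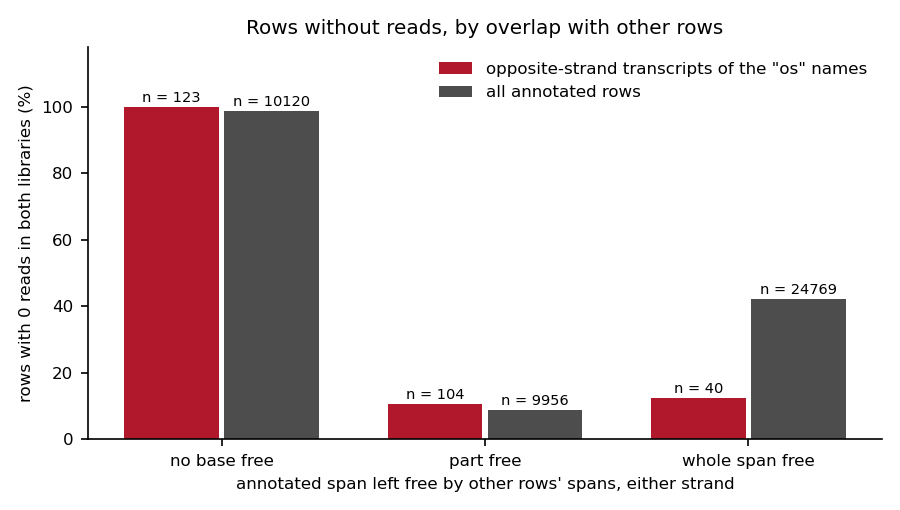
Share of rows with 0 allele reads in both libraries (y axis, percent), by how much of the annotated span other rows leave free (x axis), for opposite-strand transcripts of the os names (red) and all annotated rows (grey), with the number of rows above each bar. With no base free, 100.0% of the os transcripts and 98.8% of all rows had no reads.

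The tested antisense transcripts were sparsely read. Their reads ranged from 20 to 1360 in library 1 and from 24 to 1763 in library 2, with medians of 65 and 86. The sense genes tested, 183 of the 234, had medians of 631 and 791, and all 15509 tested rows had 383 and 461. The antisense shares varied more between the libraries, with a median SD of 6.27 percentage points, against 1.42 for the sense genes of the same pairs.

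Of the 49 tested antisense transcripts 11 (22.4%) were called, of which 7 leaned to 129 and 4 to cas, which left 38 without a call. Over all tested rows 43.7% were called, 21.8% in each direction. The median log2 ratio of the antisense transcripts was -0.03, against 0.00 for all rows. Higher from 129 were Ptgs2os, Ptgs2os2, Foxd2os, Fbxl12os, Chn1os3, Ino80dos and Brip1os, and higher from cas were Scpep1os, Plekhd1os, Frmd8os and Otx2os1. A difference of at least 2-fold was reached by 5 of the called transcripts toward 129 and 2 toward cas. The direction of the ratio differed between the libraries for 14 of the 49. With 1 library size shared by both alleles, which moves the median of all rows to 0.32, the split was 12 higher from 129 and 1 from cas.

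Over all rows the share called grew with depth. Of antisense transcripts with 20 to 49 reads in the poorer library 4 of 20 were called, against 24.9% of all rows at that depth, and with 50 to 99 reads 0 of 9, against 29.2%. With 100 to 499 reads 5 of 16 were called, against 39.4%, and with 500 or more reads 2 of 4, against 56.3%. Of the sense genes tested 87 of 183 (47.5%) were called, 45 from 129 and 42 from cas, with a median log2 ratio of 0.00, and with 1 shared library size 91 and 19.

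In 46 pairs both rows were tested, with 44 different sense genes, since Ptgs2 and Tbx3 each had 2 tested antisense transcripts. The starts lay within 1000 bp in 24 of them, 12 with overlapping spans and 12 with a gap of 68 to 270 bp. Another 16 overlapped with starts further apart and 6 did not overlap. The allele ratio of the antisense transcript differed from that of its sense gene in 6 of the 46 (13.0%; limma, adjusted p under 0.05 over 6660 opposite-strand pairs). Named pairs entered at any distance between starts. In 4 the antisense transcript was shifted toward 129 (Fbxl12os, Chn1os3, Ino80dos and Brip1os) and in 2 toward cas (Plekhd1os and Frmd8os). Among 6614 other opposite-strand pairs of tested rows within 50000 bp 20.8% differed, and among the 1204 of these with starts within 1000 bp 18.3% did, so the share among named pairs was not above this background. By reads in the poorer row, 2 of 19 named pairs with 20 to 49 reads differed, against 13.2% of the others, and 0 of 8 with 50 to 99, against 15.5%. With 100 to 499 reads 2 of 16 differed, against 23.5%, and with 500 or more 2 of 3, against 35.7%. For a difference beyond 1.5-fold limma called 0 of the 46, while 11 had an unadjusted p under 0.05 for any difference.

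By the rows' own calls, neither row was called in 28 pairs, only the antisense transcript in 5 and only the sense gene in 8. Both rows were called in 5, in the same direction for Ptgs2os, Ptgs2os2 and Scpep1os and in opposite directions for Plekhd1os and Brip1os. The difference between antisense and sense had the same sign in both libraries in 33 pairs and changed sign in 13. The 129 shares of antisense transcript and sense gene differed by a median of 7.21 percentage points as means over both libraries, against 8.55 in the other opposite-strand pairs. In single libraries the medians were 7.85 and 8.15 points, against 8.96 and 10.7. They were at least 10 points apart in the same direction in both libraries in 8 of 46 pairs, against 26.3% of the others. In library 2 alone 20 pairs were that far apart, and in library 1 alone 17.

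**Figure D2:**
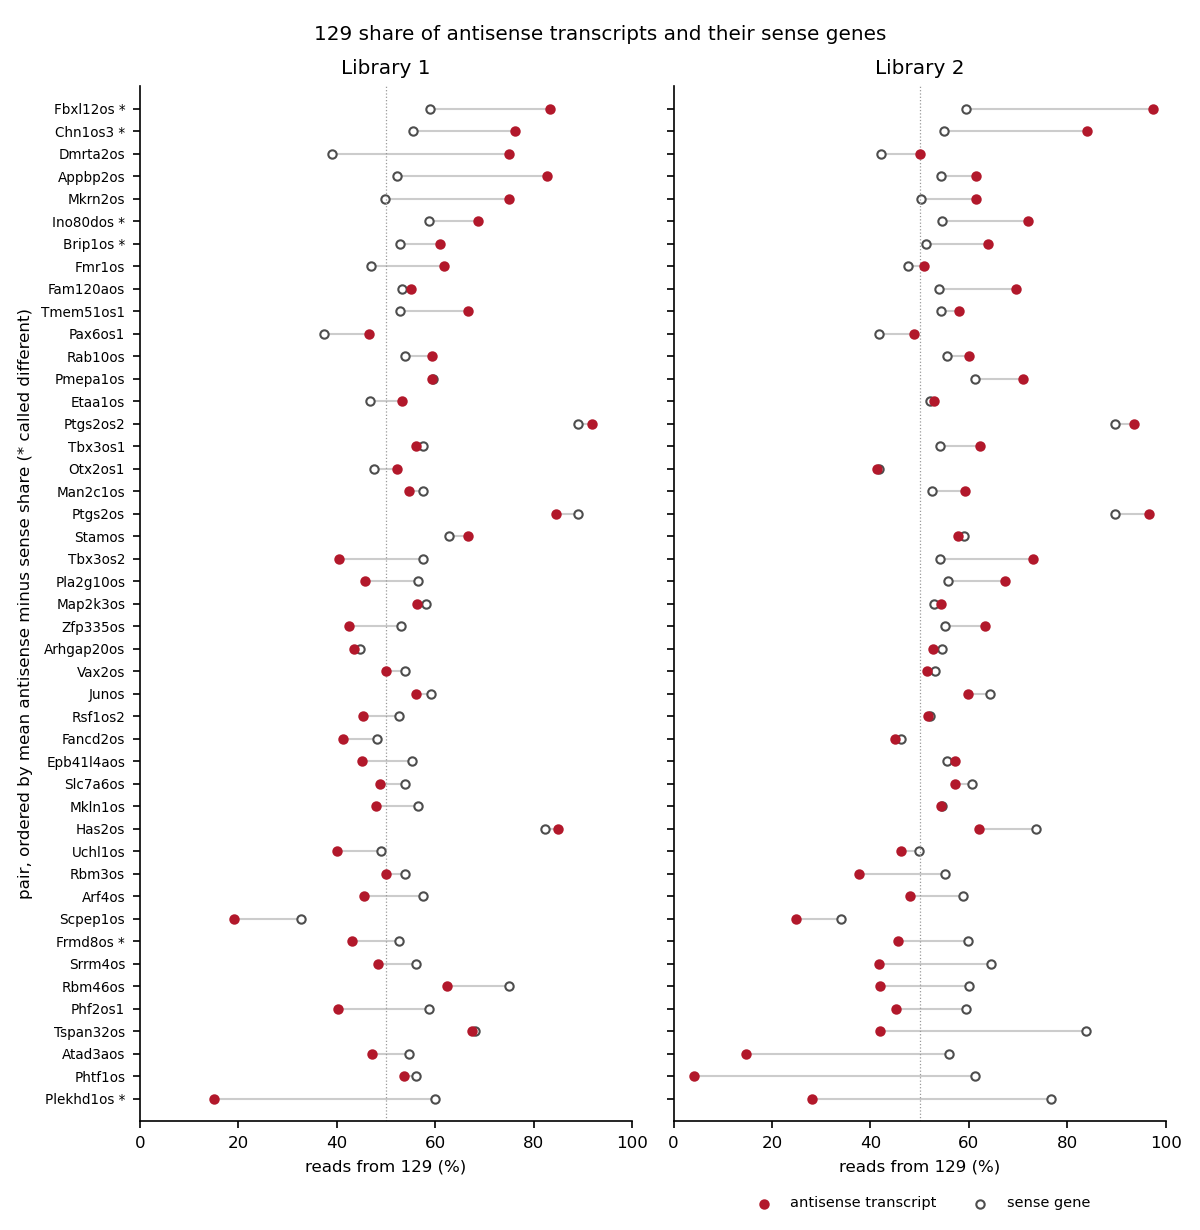
The 129 share of reads (x axis, percent) in library 1 (left) and library 2 (right) for the antisense transcript (red) and the sense gene (open circle) of 45 of the 46 pairs, ordered from top to bottom by antisense minus sense, with a star at the 6 pairs called different. In these 6 the gap had the same direction in both libraries, while in 13 pairs the difference of log2 ratios changed direction.

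Plekhd1os had the widest gap among the pairs called. It is transcribed from chromosome 12, 80686370 to 80692466 (mm10, minus strand), and its start lies 124 bp from that of Plekhd1, a gene for a protein with a pleckstrin homology domain. Plekhd1os had 3 reads from 129 and 17 from cas in library 1, and 11 and 28 in library 2, a 129 share of 21.6% ± 9.34 (SD, n = 2). Plekhd1 had 144 and 96 reads in library 1 and 227 and 69 in library 2, a share of 68.3% ± 11.8. In each library the antisense transcript was lower from 129 and the gene higher, and the 2 rows' shares did not overlap. The log2 ratios were -1.93 (SE 0.79, adjusted p = 0.04, limma) for Plekhd1os and 0.81 (SE 0.27, adjusted p = 0.011) for Plekhd1. Their difference was -2.74 (SE 0.84, adjusted p = 0.011), and it rests on 20 and 39 antisense reads.

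Fbxl12os lies beside Fbxl12, a gene for a substrate-binding F-box protein of ubiquitin ligases, on chromosome 9 at 20607458 to 20617271 (plus strand). It had 25 reads from 129 and 5 from cas in library 1, and 36 and 1 in library 2, a share of 90.3% ± 9.87. Fbxl12 had 232 and 162 reads in library 1 and 236 and 162 in library 2, a share of 59.1% ± 0.292. The antisense transcript was above its gene in both libraries, by a log2 difference of 2.50 (SE 0.89, limma adjusted p = 0.034). The gap between their spans is 847 bp. When each pair's difference was fitted as 1 value in limma the adjusted p was 0.054, and without the library block it was 0.071.

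Chn1os3 crosses the end of Chn1, which encodes a chimaerin, a protein that switches off the small GTPase Rac. The transcript spans chromosome 2, 73596526 to 73616012, and overlaps Chn1 by 5353 bp. It had 100 reads from 129 and 31 from cas in library 1, and 125 and 24 in library 2, a share of 80.1% ± 5.34. Chn1 had 2033 and 1632 reads in library 1 and 2363 and 1933 in library 2, a share of 55.2% ± 0.33 and a log2 ratio of -0.02. The antisense transcript was far above its gene in both libraries while the gene sat at the typical ratio. The difference was 1.68 (SE 0.40, limma adjusted p = 0.00072).

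Ino80dos was among the most deeply read antisense transcripts. By the annotation it spans chromosome 1, 63113078 to 63158290 (plus strand), and shares 1590 bp with Ino80d, a subunit gene of the INO80 chromatin remodelling complex. By the table its start lies 22541 bp upstream of that of Ino80d, so this overlap and the free span rest on the annotation alone. Ino80dos had 814 reads from 129 and 373 from cas in library 1, and 1267 and 496 in library 2, a share of 70.2% ± 2.33. Ino80d had 1788 and 1258 reads in library 1 and 1918 and 1602 in library 2, a share of 56.6% ± 2.98. The ranges of the 2 libraries did not overlap. The log2 ratio was 0.91 (SE 0.12, adjusted p = 2e-10, limma) for Ino80dos and 0.06 (SE 0.08, adjusted p = 0.61) for Ino80d. The difference was 0.85 (SE 0.14, adjusted p = 1.4e-06), with 0.62 in library 1 and 1.09 in library 2. Per kb of free span the antisense transcript had more reads than its gene, 61.8 and 91.8 for Ino80dos against 19.8 and 22.9 for Ino80d.

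Brip1os and Brip1 start 189 bp apart by the table and run away from each other, and their shared start region is the first sequence above. Brip1, also known as Fancj, encodes a DNA helicase that works with BRCA1 in repair. Brip1os (chromosome 11, 86201370 to 86304443) had 557 reads from 129 and 358 from cas in library 1, and 713 and 402 in library 2, a share of 62.4% ± 2.17. Brip1 had 2485 and 2218 reads in library 1 and 2792 and 2651 in library 2, a share of 52.1% ± 1.09. In both libraries the 129 share of Brip1os was above that of Brip1. The log2 ratios were 0.40 (SE 0.14, limma adjusted p = 0.011) and -0.21 (SE 0.07, adjusted p = 0.0088), and their difference was 0.61 (SE 0.15, adjusted p = 0.0012). The sign of the Brip1 ratio depends on the scaling and was 0.12 with 1 shared library size, whereas the difference between the 2 rows does not depend on it. Without the library block the difference had an adjusted p of 0.09 (limma).

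Frmd8os was lower from 129 than its gene. It spans chromosome 19, 5845623 to 5851388, and overlaps by 1687 bp the end of Frmd8, a gene for a FERM domain protein. Frmd8os had 160 reads from 129 and 211 from cas in library 1, and 272 and 325 in library 2, a share of 44.3% ± 1.72. Frmd8 had 461 and 413 reads in library 1 and 666 and 450 in library 2, a share of 56.2% ± 4.9. The difference in log2 ratio was -0.69 (SE 0.24, limma adjusted p = 0.027), from -0.55 in library 1 and -0.82 in library 2. Without the library block its adjusted p was 0.22.

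The start of Frmd8os lies 144 bp from that of another gene on the other strand, Neat1, the long noncoding RNA on which paraspeckles are built (chosen after its values were seen). Neat1 had 9853 reads from 129 and 4769 from cas in library 1, and 11959 and 4535 in library 2, a share of 69.9% ± 3.62. Frmd8os thus lay on the cas side of both neighbours, by -1.55 against Neat1 (SE 0.20, limma adjusted p = 5.7e-10). Of the 22 tested pairs whose own starts were over 1000 bp apart, 3 antisense transcripts had another tested gene's start that close on the other strand. The other two were Rsf1os2 beside Clns1a, with a difference of -0.36 (SE 0.42, adjusted p = 0.61), and the protein-coding Slc7a6os beside Prmt7, with -0.06 (SE 0.30, adjusted p = 0.92).

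**Figure D3:**
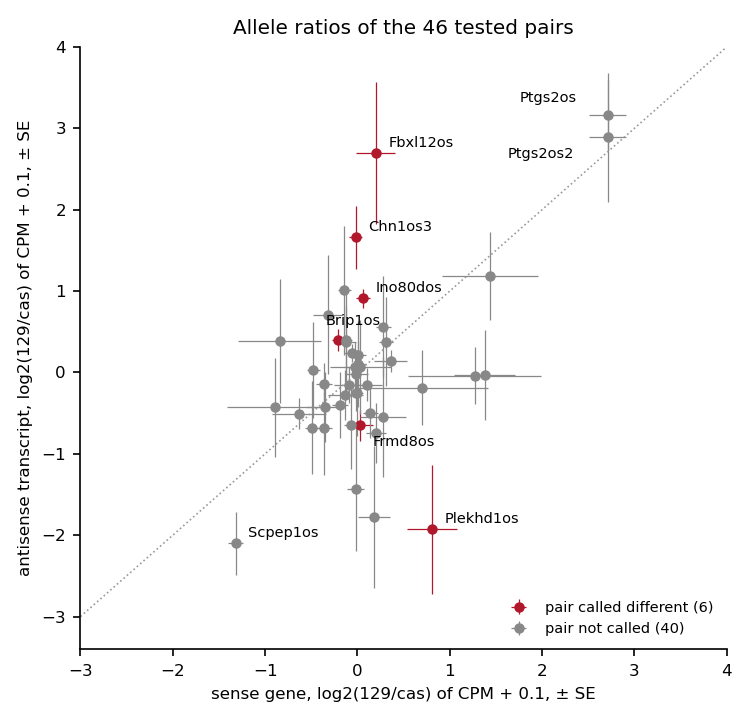
Log2(129/cas) of CPM plus 0.1 for the antisense transcript (y axis) and its sense gene (x axis) in 46 pairs, with bars of 1 moderated standard error and a dotted line where both are equal. The 6 pairs called different are red, and the Ptgs2 pairs stand apart at the upper right with ratios of 3.17 and 2.89 for the antisense transcripts and 2.71 for the gene.

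Of the 10 pairs with the most antisense reads 3 were called different, those of Ino80dos, Brip1os and Frmd8os. Rab10os, across the end of Rab10, a small GTPase gene of vesicle traffic, had 806 reads from 129 and 554 from cas in library 1, and 894 and 594 in library 2, a share of 59.7% ± 0.577. Rab10 had a share of 54.7% ± 1.17, and the difference was 0.30 (SE 0.14, limma adjusted p = 0.12). Separate two-sided exact Fisher tests of the reads in each library called this pair different (larger adjusted p = 0.0062), a test that holds counting error only.

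Map2k3os and Map2k3 share the third promoter shown above and had almost the same ratio. Map2k3 encodes a kinase that activates p38 MAP kinase. Map2k3os had 219 reads from 129 and 169 from cas in library 1, and 306 and 258 in library 2, a share of 55.3% ± 1.55, and Map2k3 55.4% ± 3.72. The difference was -0.01 (SE 0.23, limma adjusted p = 0.99) and its 95% interval -0.46 to 0.45. Junos, which overlaps the AP-1 gene Jun, had 455 reads from 129 and 354 from cas in library 1, and 605 and 405 in library 2, a share of 58.1% ± 2.59. Jun had 61.7% ± 3.62, a difference of -0.22 (SE 0.23, adjusted p = 0.56). Slc7a6os had 53.0% ± 6.0 and the amino acid transporter gene Slc7a6 57.2% ± 4.75, a difference of -0.25 (SE 0.26, adjusted p = 0.57). Man2c1os had 56.9% ± 3.22 and the mannosidase gene Man2c1 55.1% ± 3.62, a difference of 0.10 (SE 0.32, adjusted p = 0.86). In these pairs the gap between the rows was within the error of the fit, which does not show that the ratios are equal.

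A list of transcription factor genes was made by the prefix of the sense name alone and held 37 antisense transcripts of 32 genes, of which 13 antisense transcripts had 0 reads. It is not complete, since factors with other names, such as Jun, count among the other genes. Of the 37, 7 were tested, 1 higher from 129 and 1 from cas, with a median log2 ratio of -0.15. Of the 32 genes 17 were tested, 4 from 129 and 2 from cas, with a median of -0.10. Of the other 233 antisense transcripts 42 were tested, 6 from 129 and 3 from cas, with a median of -0.03. Over all tested rows 21.8% were called in each direction and the median was 0.00. In 6 of the listed pairs both rows were tested, and limma called 0 of them different, with 0 at an unadjusted p under 0.05. Of the other opposite-strand pairs, at all depths, 20.8% were called. Their shares differed by a median of 6.87 points in library 1 and 7.59 in library 2, and by 2.42 as means over both, since some gaps had opposite signs. Exact Fisher tests passed in each library for Zfp335os (larger adjusted p = 0.017) and Tbx3os2 (0.029), but in opposite directions, so neither counted as a call.

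Otx2os1, which overlaps the homeobox gene Otx2 of head and eye development, had 235 reads from 129 and 214 from cas in library 1, and 250 and 356 in library 2. Its log2 ratio was -0.51 (SE 0.19, limma adjusted p = 0.02), from -0.17 and -0.85 in the libraries, so library 2 set most of it. The ratio also depends on the scaling and was -0.19 with 1 shared library size, and exact tests of the reads in each library did not call it. Otx2 had 120 and 132 reads in library 1 and 68 and 95 in library 2, a ratio of -0.63 (SE 0.29, adjusted p = 0.075), and the pair's difference was 0.11 (SE 0.35, adjusted p = 0.86). Tbx3, a T-box gene active in naive ES cells, had 2 tested antisense transcripts. Tbx3os1 had 248 reads from 129 and 193 from cas in library 1, and 527 and 319 in library 2, a share of 59.3% ± 4.28 against 55.8% ± 2.4 for Tbx3. Tbx3os2 had 23 and 34 reads in library 1 and 54 and 20 in library 2, so its difference to Tbx3 ran from -0.96 to 1.14 between the libraries. Zfp335os, which overlaps a zinc finger gene, also changed direction, with 156 and 211 reads in library 1 and 286 and 166 in library 2, and differences of -0.61 and 0.48. Vax2os and Vax2, a homeobox gene of the eye, had shares of 50.7% ± 1.04 and 53.5% ± 0.684, and Pax6os1 and Pax6, an eye and neural gene, 47.7% ± 1.64 and 39.6% ± 3.03, with differences of -0.15 (SE 0.36) and 0.46 (SE 0.80).

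The called antisense transcript with the largest log2 ratio toward 129, Ptgs2os, belongs to a gene that was high from 129 as well. By mean 129 share, Foxd2os (94.0%) and Ptgs2os2 (92.8%) stood above Ptgs2os (90.6%). The pairs of Ptgs2, Has2 and Scpep1 were chosen after their values were seen. Ptgs2 encodes the inducible cyclooxygenase that makes prostaglandin precursors, and its promoter is the fourth sequence above. Ptgs2os (chromosome 1, 150074873 to 150099963, minus strand) had 126 reads from 129 and 23 from cas in library 1, and 227 and 8 in library 2, a share of 90.6% ± 8.51. Ptgs2os2, further along the chromosome, had 34 and 3 reads in library 1 and 44 and 3 in library 2, a share of 92.8% ± 1.22. Ptgs2 had 607 and 75 reads in library 1 and 690 and 80 in library 2, a share of 89.3% ± 0.43. All 3 rows were higher from 129 in both libraries, with log2 ratios of 3.17 (SE 0.43, limma adjusted p = 7.9e-10), 2.89 (SE 0.79, adjusted p = 0.0016) and 2.71 (SE 0.20, adjusted p = 2.7e-22). The differences of the antisense transcripts to the gene were 0.46 (SE 0.47, adjusted p = 0.56) and 0.18 (SE 0.82, adjusted p = 0.91).

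Foxd2os starts 383 bp from the forkhead gene Foxd2 and had 26 reads from 129 and 2 from cas in library 1, and 40 and 2 in library 2, a log2 ratio of 3.02 (SE 0.88, limma adjusted p = 0.0031). Foxd2 had 0 reads in library 1 and 9 in library 2, all from 129, and was not tested. Crxos, beside the photoreceptor homeobox gene Crx, which was not tested either, had 26 reads from 129 and 12 from cas in library 1, and 45 and 10 in library 2 (adjusted p = 0.12). Has2os and Has2, the hyaluronan synthase gene, had shares of 73.5% ± 16.1 and 77.9% ± 6.02. Of 19 tested markers of fibroblasts 14 had a like direction, against 21.8% of all tested rows. The other 5 were not called (Thy1, Pdgfrb, Acta2, Tagln and Loxl1), with Tagln at a log2 ratio of -0.21. Summed over the 24 markers, reads were 37480 from 129 and 19971 from cas in library 1 and 43846 and 20048 in library 2. Most of these reads were from Fn1, which had a log2 ratio of 0.16. Col1a1 had a 129 share of 97.9% ± 1.08 and Vim 94.5% ± 1.09. Of the 24, 3 were at 0 (Twist1, Lum and S100a4). The part of feeder RNA in the ratios of Ptgs2os, Ptgs2os2, Foxd2os and Has2os was not tested. In these bulk samples fewer cells of a type and less RNA per cell cannot be told apart.

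Among the 40 pairs not called, the difference ran from -1.96 to 1.23. Those of Phf2os1, Arf4os, Phtf1os and Atad3aos are given here after their values were seen. Phf2os1 starts 226 bp from Phf2, a histone demethylase gene, and had 41 reads from 129 and 61 from cas in library 1, and 69 and 84 in library 2. Its share of 42.6% ± 3.47, against 59.0% ± 0.527 for Phf2, was over 10 points lower in both libraries, a log2 difference of -0.94 (SE 0.39, limma adjusted p = 0.072). Arf4os starts 110 bp from Arf4, a small GTPase gene of the Golgi, and had a share of 46.8% ± 1.7, against 58.1% ± 0.796 for Arf4 (-0.65, SE 0.32, adjusted p = 0.15). Both pairs, like those of Rab10os and Scpep1os, were called different by the exact tests of reads and not by limma. The widest uncalled gaps rested on few reads. Phtf1os had 15 reads from 129 and 13 from cas in library 1 but 1 and 23 in library 2, and Atad3aos 16 and 18 but 4 and 23.

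On the X chromosome, whose copies are both known to be active in undifferentiated female ES cells, there were 4 members, 2 of them in tested pairs. Fmr1os had a share of 56.3% ± 7.77, against 47.3% ± 0.386 for Fmr1, the RNA-binding protein gene of fragile X syndrome. Rbm3os had 43.9% ± 8.69, against 54.5% ± 0.814 for Rbm3, a cold-induced RNA-binding protein gene. Neither difference was called (0.52, SE 0.59, limma adjusted p = 0.60, and -0.59, SE 0.54, adjusted p = 0.50).

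On the cas side the pair of Scpep1, a serine carboxypeptidase gene, had both rows called. Scpep1os had 25 reads from 129 and 105 from cas in library 1, and 36 and 109 in library 2, a share of 22.0% ± 3.96. Scpep1 had 1035 and 2126 reads in library 1 and 1312 and 2536 in library 2, a share of 33.4% ± 0.957. Both rows were lower from 129 in both libraries, by log2 ratios of -2.10 (SE 0.39, limma adjusted p = 2.9e-06) and -1.32 (SE 0.08, adjusted p = 4.7e-27). Their difference of -0.78 (SE 0.39, adjusted p = 0.16) was not called.

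Across the 46 pairs the antisense and sense log2 ratios correlated with r = 0.54 (Pearson) and rho = 0.23 (Spearman), given as a description, since the points share libraries and depth. Without the 2 pairs of Ptgs2, r was 0.19 and rho 0.12. The other opposite-strand pairs had r 0.21 and rho 0.26, and those with starts within 1000 bp 0.36 and 0.31. Among the 24 named pairs with starts within 1000 bp the shares differed by a median of 7.80 points in library 1 and 7.98 in library 2, with 2 pairs called, against 18.3% of the other pairs with such starts. The 16 overlapping pairs with starts further apart had 7.44 and 8.71 points and 3 called, and the 6 without overlap 13.6 and 7.68 points and 1 called, against 20.8% of all other opposite-strand pairs.

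Levels of antisense transcript and gene were set side by side per kb of free span, the part of the annotated span that other rows leave uncovered. This measure takes all reads to come from the free span, and it also depends on how many bases differ between the alleles in each stretch. By it the antisense transcript had a median of 0.349 times the reads of its gene in library 1 and 0.332 times in library 2. In 13 of 46 pairs the antisense transcript had more reads per free kb than its gene in both libraries. Epb41l4aos, with 963 free bases, had 356.0 and 403.0 reads per free kb, against 108.0 and 140.0 for Epb41l4a, a gene for a FERM domain protein. Frmd8os had 91.0 and 146.0, against 36.6 and 46.7 for Frmd8. Pax6os1 had 0.335 in each library, against 2.07 and 2.48 for Pax6. In total reads, 4 antisense transcripts exceeded their gene.

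**Figure D4:**
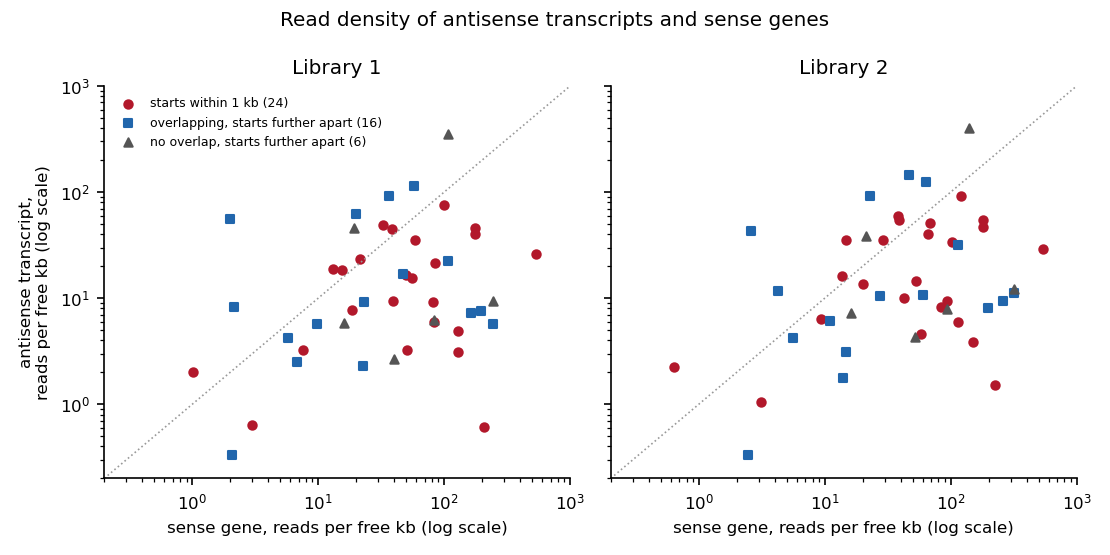
Allele reads per kb of free span (log scales) for the antisense transcript (y axis) and its sense gene (x axis) of 46 pairs in library 1 (left) and library 2 (right), by layout of the pair, with a dotted line where both are equal. Most points lie below the line, and 13 pairs lie above it in both libraries.

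Antisense pairs with other names gave a small comparison. The list had 16 pairs, among them Foxd2os, and Ftx, which lies on the same strand as Xist. Wrap53, which is transcribed from the strand opposite to the tumour suppressor gene Trp53, had a share of 58.2% ± 2.0, against 47.9% ± 0.0486 for Trp53. Their difference was 0.60 (SE 0.15, limma adjusted p = 0.0022). Zfas1 and Znfx1 had 50.8% ± 1.74 and 50.1% ± 4.51, a difference of 0.04 (SE 0.20, adjusted p = 0.93), and the imprinted Nespas and Gnas had a difference of -0.07 (SE 0.43, adjusted p = 0.93). Airn and Igf2r, another imprinted pair, had 63.2% ± 7.5 and 69.7% ± 4.04, a difference of -0.42 (SE 0.16, adjusted p = 0.059). Gas5 and Zbtb37 were both lower from 129, with 43.6% ± 0.203 and 38.2% ± 2.35 and a difference of 0.32 (SE 0.19, adjusted p = 0.24). Snhg14 and Ube3a, Lncpint and Mkln1, and Dleu2 and Trim13 have starts too far apart for the pairs tested, and their differences were 0.37 (SE 0.12), 0.23 (SE 0.09) and -1.03 (SE 0.27). Tsix had a share of 46.3% ± 10.0, while Xist, wholly under it, had 0 reads.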

How the data were processed

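Total nuclear RNA of F121-6 cells was sequenced as 100 bp paired-end, strand-specific reads, with earlier libraries sequenced again and merged, per the labels' protocols. Alignment used Bowtie2 and the build mm10, per the submitters' processing notes. Not given in the sources used here are the counting program, SNP set, annotation and strand setting. The authors deposited RPKM values, in columns that the file headers name as counts. Multiplying each value by its row length gave multiples of a single step in each column, and 100.0% of values came out as whole reads within 0.01 read. Annotated spans came from GENCODE M21 (mm10), where name, chromosome and strand fitted 46410 rows (95.6%). After scaling by trimmed means of M values (TMM), recovered reads were tested as log2(CPM + 0.1) with limma 3.58.1 (R 4.3.3), library as a block, trended variances, at least 20 reads per library, the Y chromosome left out, and Benjamini-Hochberg adjustment over 15509 rows. These fold changes understate the change of rows with few reads. A pair's difference is antisense minus sense log2 ratio in that fit. Its standard error is the root of the sum of both rows' squared standard errors. Its p was adjusted over 6660 opposite-strand pairs, 6614 with window centres within 50000 bp and the 46 named pairs at any distance. Library is a block because its 129 and cas reads were made from 1 RNA sample. The scripts were tested on simulated data.

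Pairs were named by fixed rules: pairs called different, the 10 with most antisense reads, both rows called in opposite directions, the closest deeply read ratios, called transcripts whose gene was not tested, and transcription factor pairs. Epb41l4aos, Fmr1os, Rbm3os, Crxos and Tnfsf13os are described outside these rules, as are the pairs marked as chosen after their values were seen. Members and lists were chosen with earlier results of these data known. Alternatives covered the pseudocount, read minimum, scaling, block, a 1.5-fold threshold, exact tests and single libraries. Promoter sequences are RefSeq's (GRCm38.p6). Shares rest on reads without molecular identifiers, so counting limits cover counting error only. The values of 1 tested pair are not reported here on their own, though it enters the counts.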

Additional observations from a re-analysis of the deposited data

How the results depend on the processing

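Of the antisense transcripts, 7 were higher from 129 and 4 from cas. The count from 129 was 4 with at least 50 reads, 14 with no filter beyond 1 read and 12 with 1 shared library size. The count from cas was 2 with the deposited column totals, 1 with 1 shared size and 1 beyond 1.5-fold. The sense genes, 45 from 129 and 42 from cas, gave 91 and 19 with 1 shared size and 17 and 10 beyond 1.5-fold. Of the called pairs, 4 toward 129 and 2 toward cas, limma beyond 1.5-fold left 0 and 0 (11 pairs had an unadjusted p under 0.05 without that threshold), at least 50 reads left 1 toward cas, and exact tests in each library called 5 toward cas. Without the block that pairs the alleles of a library (no replicate block), antisense calls from cas were 1, sense calls 29 and 24, and called pairs 2 toward 129 and 1 toward cas. Fbxl12os (adjusted p = 0.071), Frmd8os (0.22) and Brip1os (0.09) lost their call there. Pairs at least 10 points apart, 8, were 3 with at least 50 reads, 21 with no filter and 17 to 20 with 1 library left out, where 1 library alone has to show the gap. The median gap of 7.21 points was 9.02 with at least 10 reads, 4.19 with 50, 11.4 with no filter and 7.85 to 8.15 with 1 library left out. The Pearson r of 0.54 was 0.81 with at least 50 reads, 0.42 to 0.57 with 1 library left out and, chosen after seeing the data, 0.19 without the Ptgs2 pairs. In the 19 pairs with at least 100 reads per row and library r was 0.82, but the Spearman rho was only 0.2. Among values of single named pairs and transcripts under alternatives with a test, 164 stayed on their side of the threshold with the same direction, 10 lost the call and 1 (Rab10os, exact tests) gained it. Of 36 such values from 1 library, which have no test, 6 had the opposite sign, all in pairs not called (Tbx3os1 -0.08, Otx2os1 -0.04, Map2k3os 0.09, Zfp335os 0.48, Man2c1os -0.18 and Tbx3os2 -0.96). The causes of these changes were not tested. A fit on 1 library has no residual degrees of freedom, so it gave values and no test. Depth limits the antisense rows, with medians of 65 and 86 reads.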
